A study of Crocodylus porosus with 60 samples.

Results

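The small intestine of hatchling saltwater crocodiles (Crocodylus porosus) was set against tissues outside the gut for its microRNA (miRNA) content. Among 60 small RNA samples in the series, 4 were labelled small intestine, and the deposited table held 1 value column for that tissue among the 15 columns used. The small intestine column was compared with the mean of 8 tissues, which were brain, liver, spleen, heart, tongue, testis, cloaca and jaw skin. These tissues accounted for 52 samples and 13 columns, and the 4 testis, 2 heart and 2 brain columns were averaged within their tissue first. Stomach (4 samples, 1 column) belongs to the gut and was left out of the mean, and its level is given beside many of the results.

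The animals were untreated hatchlings of differing growth raised alike, either runts (359 days of age, 386.2 ± 23.6 mm long, SD) or normal hatchlings (373 days, 740.2 ± 73.5 mm). Size classes were named in the column headers of testis, heart and brain, and the header for small intestine named none, so its size class is not known. The column used for cloaca was headed cloacal gland, whereas the samples were titled cloaca. Because the 4 small intestine samples share 1 column, the tissue had no replicate, and levels, ranks and folds are described without a test.

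MiRNAs are short RNAs that guide Argonaute proteins to messenger RNAs and lower their translation or stability. In mammals, the absorptive epithelium of the intestine is known for the related miR-192 and miR-215 and for miR-194, which is encoded beside them. The wall beneath it carries smooth muscle, in which miR-143 and miR-145 are abundant, and epithelia in general carry the miR-200 family.

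The small intestine library held about 990000 reads, as estimated from the worth of 1 read in the table, against 540000 to 4760000 in the non-gut libraries and 1580000 in stomach. Levels are in RPM, read numbers scaled so that libraries of unequal depth can be compared, and 1 read was worth 1.01 RPM in small intestine. A value of 0 was taken to allow up to 3 reads or 3.04 RPM, a fixed limit that is not the interval described next. A wider limit would lower the fold bounds given for rows at 0. In brackets after a level stands its exact 95% Poisson interval, which covers counting error only. The listed miRNAs summed to 73.9% of the RPM total in small intestine and to 55.3 to 81.5% in the non-gut libraries. Of 647 distinct rows, 371 were above 0 in small intestine, against 343 to 554 in the non-gut libraries, and no row was present in small intestine and at 0 in every non-gut library. Rows with an N and a number carry no family name in the table, and whether any belongs to a known family was not tested. Arm suffixes are those of the table.

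The small intestine library was dominated by few miRNAs. The 10 most abundant rows took 81.3% of its listed RPM, within the 61.1 to 87.6% of the non-gut libraries, and 5 rows reached 50% of it. The N-numbered miR-N1 ranked first with 125413 RPM [124715 to 126114], which is 12.5% of the RPM total (exact binomial 95% interval 12.5 to 12.6%). By the mean of the 8 tissues it ranked 18. Behind it came miR-148-5p with 81821 RPM, miR-N444 with 72676 RPM, miR-26a-5p with 65382 RPM, miR-145 with 62441 RPM, miR-215-5p with 59669 RPM and miR-21-5p with 52079 RPM.

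The remaining 3 of the 10 were miR-30a-5p (36492 RPM), miR-425-5p (19713 RPM) and miR-181a-5p (19697 RPM). These 3, together with miR-148-5p, miR-26a-5p and miR-N444, lay within 4-fold of the mean of the 8 tissues, with log2 ratios of −0.92 for miR-N444 to 0.85 for miR-148-5p. MiR-148-5p was above 12 of the 13 non-gut libraries and below liver, which had 143399 RPM. MiR-N444 was the most abundant row by the mean of the 8 tissues, yet only 3 of 13 non-gut libraries lay below small intestine. Of the 10 rows, miR-N1, miR-145, miR-215-5p and miR-21-5p stood above every non-gut library.

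**Figure D1:**
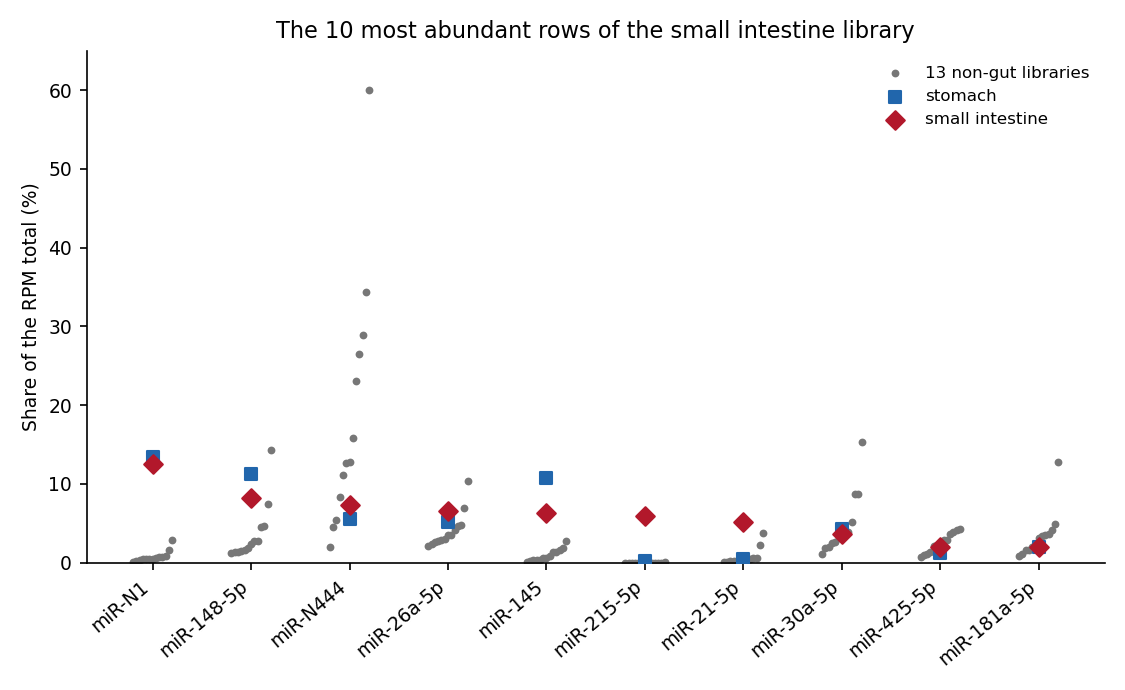
Share of the RPM total (%, linear axis) taken by the 10 most abundant rows of the small intestine library, with a red diamond for small intestine, a blue square for stomach and grey dots for the 13 non-gut libraries. MiR-N1 took 12.5% of the small intestine library, and miR-N1, miR-145, miR-215-5p and miR-21-5p lie above all 13 grey dots.

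Rows with at least 10 RPM in small intestine or in the mean of the 8 tissues were counted, 209 in all, of which 118 carried a family name and 91 an N number. Ratios are given as log2 after adding 1 RPM to both sides, which understates the ratio of a higher row that is near 0 in the other tissues. For a row at 0 in small intestine the ratio can be overstated. A bound computed against 3.04 RPM is given for some of these rows and for some list medians. All rows at 0 are still counted by the ratio with 1 RPM added. In small intestine 11 rows (5.26% of those counted) were at least 4-fold above the mean of the 8 tissues, and 10 of the 11 carried a family name. At least 4-fold below that mean were 62 rows (29.7%), of which 33 were N-numbered. Of these 62, 19 were at 0 in small intestine, and for 2 of the 19 the bound that a 0 allows is under 4-fold. The median log2 ratio over all 209 rows was −1.06. A mean over tissues is pulled up by any tissue in which a row is abundant, and against the median of the 8 tissues 24 rows (11.5%) were at least 4-fold higher and 20 (9.57%) at least 4-fold lower, with a median of −0.31.

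Measured against single libraries, 14 rows (6.7%) were higher in small intestine than in every one of the 13 non-gut libraries, and 18 rows (8.61%) were lower than in every one. Of the 11 higher rows 10 were among the 14, but of the 62 lower rows only 8 were among the 18. The same rule applied to each of the 8 tissues in turn, against the others and small intestine, put between 1.79% of rows in tongue and 25% in testis at least 4-fold higher, and between 14.45% in testis and 36.04% in spleen at least 4-fold lower. The small intestine shares lay inside both ranges.

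**Figure D2:**
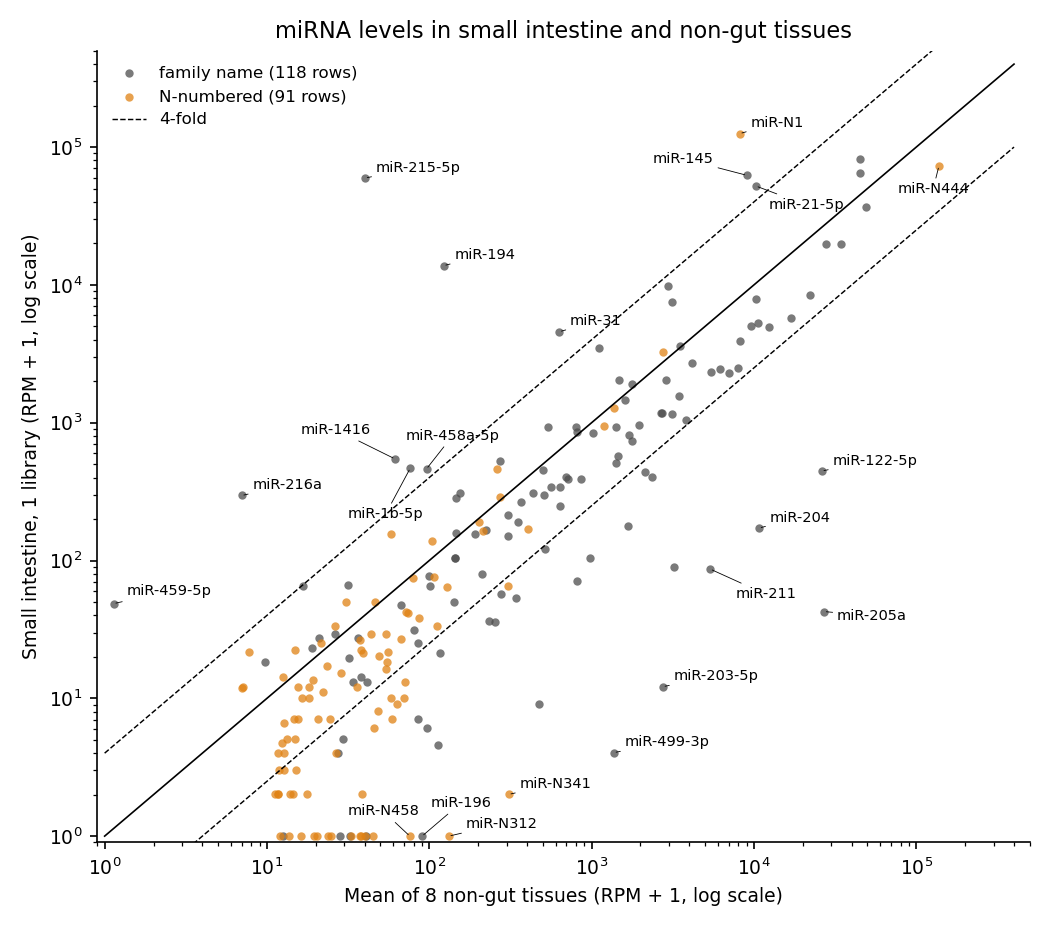
Level in small intestine (1 library, y axis) against the mean of the 8 non-gut tissues (x axis) for the 209 rows counted, both as RPM + 1 on log scales, with grey dots for family names and orange dots for N-numbered rows. The solid line marks equal levels and the dashed lines 4-fold differences, with 11 rows above the upper line and 62 below the lower one, and the row farthest above is miR-215-5p.

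The spread between libraries of 1 tissue gave a measure of difference without a change of tissue, which small intestine itself could not. In the 8 pairs of libraries from the same tissue (testis, heart or brain), 9.56 to 36.3% of rows were at least 4-fold apart, so a 4-fold difference between 2 libraries is common without any difference in tissue. The heart and brain pairs each set a runt against a normal hatchling. So did the testis pair with the highest share, runt library 2 with normal library 2. In such pairs, library error and size class cannot be told apart. The testis pairs of 1 size class had 12.02% (normal) and 9.56% (runt) of rows at least 4-fold apart. Small intestine was at least 4-fold apart from the 13 non-gut libraries in 27.9 to 58.85% of rows, a range that overlaps that of the 8 pairs, and from stomach in 20.35%. The 95th percentile of the absolute log2 difference within a tissue reached at most 3.58, in that mixed testis pair. It was 2.42 and 2.27 in the testis pairs of 1 size class. Of the 11 higher rows 5 (miR-215-5p, miR-194, miR-459-5p, miR-216a and miR-N1) exceeded 3.58, as did 32 of the 62 lower rows. The measures are unlike, since 3.58 compares 2 single libraries and these ratios set 1 library against a mean of 8 tissues. MiR-216a and miR-459-5p passed the 10 RPM filter only through small intestine. The 19 lower rows at 0 in small intestine passed it only through the mean.

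**Figure D3:**
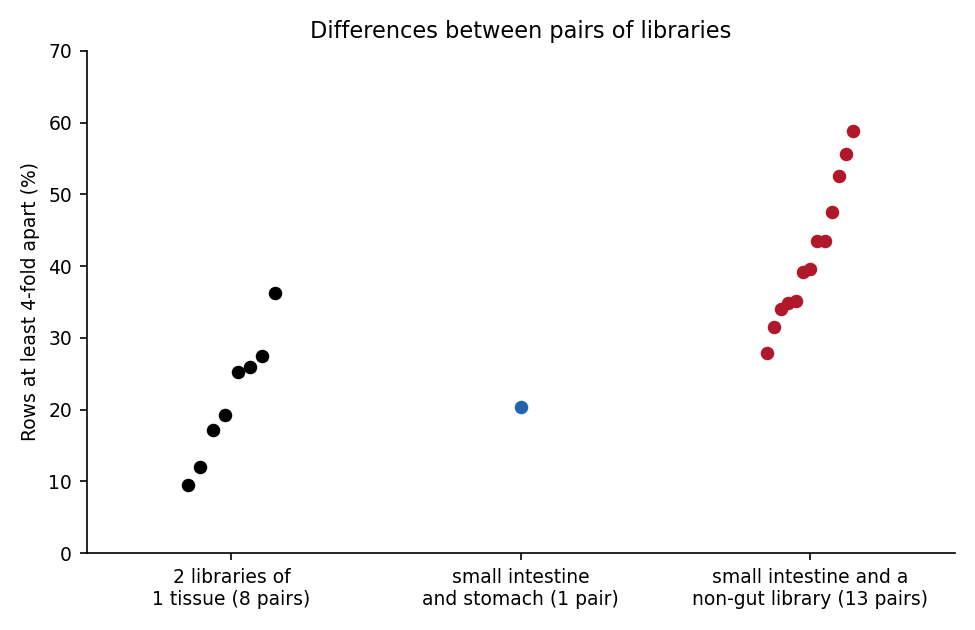
Share of rows at least 4-fold apart (%, y axis) between pairs of libraries, with 1 point per pair, for the 8 pairs within testis, heart or brain, for small intestine with stomach, and for small intestine with each of the 13 non-gut libraries. The first set runs from 9.56 to 36.3%, the pair with stomach lies at 20.35%, and the last set runs from 27.9 to 58.85%.

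MiR-215-5p and miR-194, known from intestinal epithelium in mammals, had the largest ratios of all rows counted. Of the 4 rows matched in this list, 3 were at least 4-fold higher than the mean of the 8 tissues, against 5.26% of all rows counted. The same 3 were above all 13 non-gut libraries, against 6.7% of all rows counted. None of the 4 was at least 4-fold lower, against 29.7% of all rows, and 4 rows are few for such a comparison. The list's median log2 ratio was 4.83 against −1.06 over all rows. Together the 4 rows summed to 81511 RPM in small intestine and 4853 RPM in stomach. In the non-gut libraries the sum ran from 20.7 RPM in the heart library of a normal hatchling through a median of 771 RPM to 12692 RPM in testis library 2 of the runts. The label of the tissue and these markers point the same way. The list was chosen with earlier results of these data known, so it gives the label no independent support. Its entry miR-192 matched no row. In a whole tissue, fewer cells of a type and less RNA per cell cannot be told apart, and this holds for every list below.

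MiR-215-5p, in mammals a miRNA of differentiated enterocytes, had 59669 RPM [59187 to 60153] in small intestine. Its 4 testis libraries had 22.3, 43.0, 70.8 and 251 RPM, its 2 heart libraries 0 and 48.7 RPM and its 2 brain libraries 0 and 5.68 RPM. Jaw skin had 24.1 RPM, tongue 1.27, cloaca 33.1, liver 25.4 and spleen 107 RPM. No non-gut library came near small intestine, which was 238 times the highest of them. The mean of the 8 tissues was 39.3 ± 40.2 RPM (SD, n = 8 tissues), a log2 ratio of 10.53, and against each of the 8 tissues on its own miR-215-5p was the row with the largest ratio. Stomach, at 1479 RPM, was also above all 13 non-gut libraries, and small intestine exceeded it 40.3-fold.

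MiR-194, encoded beside miR-192 and miR-215 in mammals, had 13802 RPM [13571 to 14036] in small intestine. The non-gut libraries ran from 3.45 RPM in heart through a median of 18.1 to 647 RPM in liver, with a mean over the 8 tissues of 122 ± 219 RPM (SD, n = 8) and a log2 ratio of 6.81. Liver alone supplied 66.3% of the sum over the 8 tissues, and stomach had 999 RPM. The groups did not overlap, with small intestine 21.3 times the liver level. The ratio of miR-215-5p to miR-194 was 4.32 in small intestine, 1.48 in stomach, and 0 to 2.69 in the 13 non-gut libraries, with the lowest value above 0 in liver at 0.0393. Several non-gut ratios rest on few reads. The 2.69, in cloaca, came from 33.1 and 12.3 RPM. The ratios of 0, in brain and heart, came from 4.27 and 3.45 RPM of miR-194.

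MiR-31, known in mice from both intestinal stem cells and skin, had 4574 RPM [4441 to 4709] in small intestine. The non-gut libraries had 8.05 RPM at the lowest (heart), 256 RPM at the median and 2413 RPM at the highest (jaw skin), and stomach had 196 RPM. Small intestine was above all of them, but only 1.9 times the jaw skin level, and the log2 ratio to the mean of 633 ± 806 RPM (SD, n = 8) was 2.85. That is below the 3.58 reached by the 95th percentile of differences within 1 tissue, in a testis pair of a runt with a normal hatchling. It is above the 2.42 and 2.27 of the testis pairs of 1 size class.

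MiR-375, in mammals a miRNA of hormone-secreting cells of gut and pancreas, did not pass 4-fold. It had 3467 RPM [3351 to 3585] in small intestine and 2179 RPM in stomach. The 2 testis libraries of runts stood at 10567 and 12144 RPM, against 234 and 128 RPM in those of normal hatchlings, while tongue had 2954 RPM and the other non-gut libraries 9.19 to 61.4 RPM. Small intestine was thus above 11 of the 13 non-gut libraries, and the log2 ratio was 1.64 against the mean of the 8 tissues and 6.59 against their median. MiR-7, the other row of the endocrine list, had 932 RPM against a mean of 1409 RPM, with 7 of 13 libraries below.

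The pancreas list of 3 entries matched only 2 rows, miR-216a and miR-375, and of these miR-216a alone was at least 4-fold higher. The list summed to 3762 RPM in small intestine, above 11 of the 13 non-gut libraries, and to 12152 RPM in testis library 2 of the runts. MiR-216a, a miRNA of pancreatic acinar cells in mammals, had 295 RPM [262 to 331] in small intestine and was listed at 0 in stomach. Among the non-gut libraries 6 were at 0, the median was 0.51 RPM and the 2 brain libraries had 33.2 and 41.8 RPM. Brain was the only non-gut tissue above 10 RPM, and small intestine was 7.06 times its higher library. The mean of the 8 tissues was 6.00 ± 13.0 RPM (SD, n = 8), a log2 ratio of 5.40. The part that pancreatic tissue might have had in the small intestine sample was not tested.

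MiR-459-5p came closest to being present in small intestine alone, with 47.7 RPM [35.1 to 63.4]. It was at 0 in 12 of the 13 non-gut libraries and in stomach, and spleen had 1.12 RPM, about 3 reads at its depth. Its log2 ratio of 5.42 (4.98 to 5.82 from counting error in small intestine) depends on the value added before taking logs and was 2.51 when 10 RPM was added.

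The second set of higher rows was shared with stomach. MiR-N1 had 125413 RPM in small intestine and 133984 RPM in stomach. The non-gut libraries ran from 1183 RPM in jaw skin through a median of 5181 to 29114 RPM in spleen, so that neither gut library overlapped them. The mean of the 8 tissues was 8196 ± 8873 RPM (SD, n = 8) and the log2 ratio 3.94.

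MiR-145, abundant in smooth muscle of mammals, had 62441 RPM [61949 to 62936] in small intestine and 107486 RPM in stomach, against 1372 RPM (jaw skin), 6383 RPM (median) and 27630 RPM (spleen) in the non-gut libraries. Its log2 ratio was 2.79. MiR-1416 followed the same order, with 546 RPM [501 to 594] in small intestine, 1832 RPM in stomach and 7.47 to 221 RPM in the non-gut libraries, a log2 ratio of 3.16. For all 3 rows both gut libraries were above every non-gut library and stomach was the higher of them.

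MiR-145 moved apart from the other rows matched in the smooth muscle and mesenchyme list, miR-199-5p and miR-214-5p. The list's entry miR-143 matched no row, so miR-145 could not be set beside it. MiR-199-5p and miR-214-5p, encoded together and abundant in fibroblasts of mammals, had 1166 and 575 RPM in small intestine, against means of 2669 ± 1490 and 1454 ± 848 RPM (SD, n = 8). Their log2 ratios were −1.19 and −1.34, close to the median of all rows. Of the 3 rows counted, 1 was at least 4-fold higher and none at least 4-fold lower, against 5.26% and 29.7% of all rows. The sum of the list was 64183 RPM, above all 13 non-gut libraries and below stomach at 110507 RPM.

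MiR-21-5p, a widespread miRNA that is raised in many injured and immune tissues of mammals, had 52079 RPM [51629 to 52531] in small intestine and 4945 RPM in stomach. The non-gut libraries ran from 896 RPM in brain through a median of 3336 to 37658 RPM in spleen, with liver next at 22578 RPM. Small intestine was 1.38 times spleen, a gap smaller than the median difference in each of the 8 pairs of libraries from 1 tissue, and its log2 ratio was 2.34. MiR-458a-5p had 462 RPM [420 to 506] against 410 RPM in a brain library, 48.9 RPM at the median of the non-gut libraries and 29.7 RPM in stomach.

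MiR-1b-5p was the exception among the 11 rows, since a heart library overlapped small intestine. It had 465 RPM [424 to 510] in small intestine and 401 RPM in stomach. The heart library of a runt had 903 RPM and that of a normal hatchling 156 RPM, and the other 11 non-gut libraries had 1.49 to 32.0 RPM. Together the 11 higher rows took 43.66% of the listed RPM in small intestine and 33.88% in stomach, against 1.35% (heart of a normal hatchling) to 17.22% (spleen) in the non-gut libraries. Among the 11, miR-215-5p, miR-194, miR-459-5p and miR-216a exceeded the highest non-gut library by more than 5-fold, and the others did not.

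**Figure D4:**
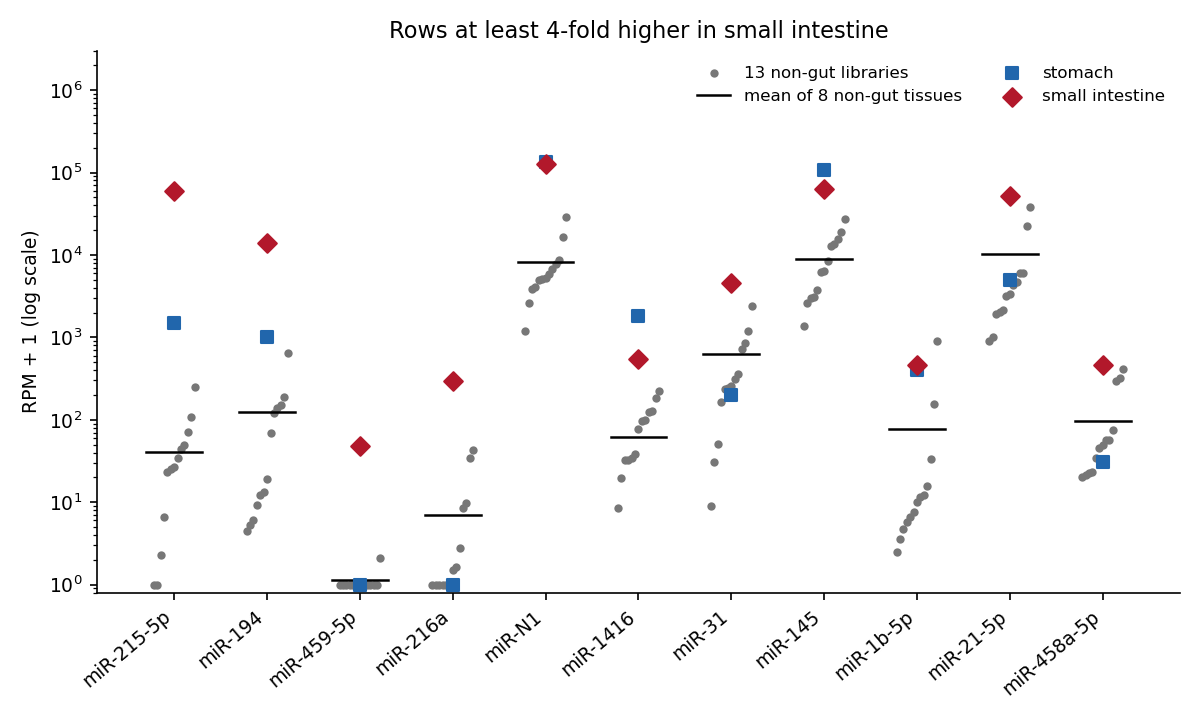
Levels (RPM + 1, log scale) of the 11 rows at least 4-fold higher in small intestine, ordered by their ratio, with a red diamond for small intestine, a blue square for stomach, grey dots for the 13 non-gut libraries and a black bar for the mean of the 8 tissues. Small intestine lies above every grey dot except for miR-1b-5p, and stomach lies above it for miR-N1, miR-1416 and miR-145.

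Another 4 rows stood above every non-gut library without reaching 4-fold over the mean. They were miR-200a-5p (log2 ratio 1.73), miR-1662 (1.97), miR-N383 (1.44) and miR-101-1-5p (0.99), and each exceeded its highest non-gut library by a factor of at most 1.1. Differences of that size lie within the spread between libraries of 1 tissue.

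The miR-200 family, which keeps epithelial cells from turning mesenchymal in mammals, followed the epithelial tissues. MiR-200a-5p had 9854 RPM [9659 to 10052] in small intestine, 20707 RPM in stomach, 9558 RPM in tongue, 8387 RPM in jaw skin and 4667 RPM in cloaca, whereas the other 5 non-gut tissues averaged 79.3 to 542 RPM. MiR-200b-5p (7465 RPM) and miR-429-3p (935 RPM) were each above 11 of 13 non-gut libraries. None of the 3 rows was 4-fold above the mean of the 8 tissues, with a median log2 ratio of 1.26, and the median was 3.97 against the median of the 8 tissues.

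The miRNAs of stratified epithelium were far lower than in the tissues that carry it. MiR-205a, known from basal cells of mammalian skin, had 41.6 RPM [29.9 to 56.4] in small intestine and 9.47 RPM in stomach, against 116144 RPM in jaw skin, 76174 RPM in cloaca and 24437 RPM in tongue. The other 10 non-gut libraries lay at or below 80.6 RPM, and 8 of the 13 were below small intestine. MiR-203-5p, which promotes keratinocyte differentiation in mice, had 11.2 RPM [5.57 to 20.0] against 16179 RPM in jaw skin. The list's median log2 ratio was −8.57 against the mean of the 8 tissues but −0.28 against their median.

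Rows of striated muscle differed among themselves. MiR-133-5p, a miRNA of cardiac and skeletal muscle, had 2346 RPM [2251 to 2443] in small intestine and 5345 RPM in stomach, while 10 of 13 non-gut libraries lay below small intestine and the highest, a heart library, had 37916 RPM. MiR-1-1-5p had 310 RPM, also above 10 of 13, and 252 RPM in stomach. By contrast miR-499-3p, encoded within a myosin gene in mammals, had 3.04 RPM, 3 reads, against 15279 RPM in a heart library, and its log2 ratio was −8.41 (−9.72 to −7.12 from counting error).

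MiR-206, a skeletal muscle miRNA, was at 0 in small intestine, at 0.63 RPM in stomach and at 248 RPM in tongue. MiR-1b-5p, described above, lay between the 2 heart libraries, and miR-208a, too low to be counted, was at 0. Of the 7 rows counted in this list, 1 was at least 4-fold higher and 2 at least 4-fold lower, against 5.26% and 29.7% of all rows. The median log2 ratio was −1.21 against the mean of the 8 tissues and 3.13 against their median. The values of miR-133c-5p were 0.5 of those of miR-133-5p in all 15 libraries, as when reads are divided between rows, so these 2 are not separate measurements.

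Among blood-borne cells, rows of white cells were mostly near the level of all rows. MiR-150, known from mature lymphocytes, had 2482 RPM [2385 to 2583] against 36221 RPM in spleen and a median of 3785 RPM over the non-gut libraries. MiR-155-5p, a miRNA of activated lymphocytes and macrophages in mammals, had 343 RPM [307 to 382] in small intestine but 17.7 RPM in stomach, and 11 of 13 non-gut libraries lay below small intestine. MiR-223, known from granulocytes, was the only row of the 4 to be at least 4-fold lower, with 55.8 RPM against a mean of 277 RPM. Over all rows counted, 29.7% were at least 4-fold lower. The red cell row miR-144-5p had 13.2 RPM in small intestine and 230 RPM in spleen, and the endothelial miR-126-5p had 3630 RPM against a mean of 3497 ± 3472 RPM (SD, n = 8).

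Many lower rows were carried by 1 other tissue, which the use of a mean favours, since 1 abundant tissue raises it. In 45 of the 62 lower rows a single tissue supplied over 50% of the sum over the 8 tissues, against 76 of all 209 rows counted. It supplied over 90% in 20 of the 62 and in 21 of the 209. The tissue with the highest level was brain in 16 rows, testis in 15, heart in 9, jaw skin in 9, liver in 5, spleen in 4, tongue in 2 and cloaca in 2. Against the median of the 8 tissues 20 of the 62 remained at least 4-fold lower and 18 were at or above it.

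Of the brain and neuron list, 7 rows were counted, of which 5 were at least 4-fold lower and none higher. Over all rows counted, 29.7% were at least 4-fold lower and 5.26% at least 4-fold higher. MiR-9-5p, which acts in the developing nervous system of vertebrates, had 89.3 RPM [71.6 to 110] in small intestine against 35790 RPM in a brain library, and 160 RPM at the median of the non-gut libraries. MiR-124-5p, among those 5, was at 0, and it reached 107 RPM in brain. Its mean over the 8 tissues was 11.6 RPM, so the bound that its 0 allows is short of 4-fold. MiR-128-1-5p and miR-129-5p lay within 4-fold of the mean, with 1043 and 739 RPM. The list's median log2 ratio was −2.67, or −2.53 with miR-124-5p at the bound its 0 allows, and −0.29 against the median of the 8 tissues.

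MiR-122-5p, the dominant miRNA of liver in vertebrates, changed direction with the comparison. Small intestine had 446 RPM [405 to 489], stomach 416 RPM and liver 208151 RPM, while the median non-gut library had 79.5 RPM and 10 of 13 lay below small intestine. The log2 ratio was −5.88 against the mean of the 8 tissues and 2.29 against their median. Liver supplied 99.2% of the sum over the 8 tissues.

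The gonad and cilia list summed lower in small intestine than in any other library. MiR-202-5p, a gonad miRNA of vertebrates, was at 0 in small intestine and stomach. It averaged 253 ± 160 RPM in testis (SD, n = 4 libraries of both size classes). Testis supplied nearly all of its mean of 31.7 RPM over the 8 tissues. MiR-449a-5p, of ciliated cells in mammals, had 5.07 RPM [1.65 to 11.8] and was below every non-gut library, the lowest of which was liver at 5.98 RPM, inside that interval. Its relative miR-449b-5p was at 0. Of 5 rows counted 4 were at least 4-fold lower, against 29.7% of all rows. The list summed to 20.8 RPM against 52.1 RPM in stomach and 37.8 to 1230.1 RPM in the non-gut libraries. The list's median log2 ratio was −4.63, or −3.38 with the 2 rows at 0 placed at their bounds.

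The HOX cluster rows divided. MiR-10c-5p (926 RPM) and miR-10a-5p (157 RPM), encoded among the HOX genes that pattern the body axis, were within 4-fold of their means, with 8 and 9 of 13 non-gut libraries below. MiR-196, from a more posterior site in the same clusters, was at 0 in small intestine and stomach. Cloaca had 520 RPM and the 4 testis libraries had 34.3, 35.2, 183 and 507 RPM. Small intestine was at least 29.3-fold below the mean of the 8 tissues, which was 89.3 RPM. Cloaca and testis supplied nearly all of that mean, and the other non-gut tissues were near 0. A low level of miR-196 was thus not particular to small intestine.

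MiR-204 and miR-211 were low against most tissues. MiR-204 had 171 RPM [146 to 199] in small intestine and 349 RPM in stomach, against 55598 RPM in jaw skin and a median of 3163 RPM, and 2 of the 13 non-gut libraries lay below it. Its log2 ratio was −5.97 against the mean and −4.24 against the median of the 8 tissues. MiR-211 stood at 0.5 of miR-204 in all 15 libraries, so its log2 ratio of −5.96 adds no separate measurement.

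N-numbered rows gave 3 of the 10 smallest ratios, each with its highest level in testis or brain. MiR-N341 had 1.01 RPM, a single read, against 2462 ± 778 RPM in testis (SD, n = 4 libraries of both size classes). Its log2 ratio was −7.27 (−8.24 to −5.54 from counting error). MiR-N458 was at 0 against 597 ± 209 RPM in testis (SD, n = 4 libraries of both size classes), at least 24.6-fold below the mean of the 8 tissues. MiR-N312 was also at 0, with 1795 RPM in the brain library of a runt and 236 RPM in that of a normal hatchling, at least 43.1-fold below the mean. Without testis, the mean of the other non-gut tissues was under 10 RPM for miR-N341 and miR-N458. Without brain, it was under 10 RPM for miR-N312. Low levels of these rows were thus not particular to small intestine.

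In 8 cases a row was both at least 4-fold lower after adding 1 RPM and below every non-gut library, and all 8 had means under 100 RPM over the 8 tissues. Besides miR-449a-5p they were miR-18b, of the miR-17-92 clusters, and the N-numbered miR-N29, miR-N75, miR-N31, miR-N401, miR-N340 and miR-N44. MiR-N31 had 6.09 RPM [2.24 to 13.3] against 10.2 RPM in the lowest and 236 RPM in the highest non-gut library, and miR-18b had 3.04 RPM [0.626 to 8.89] against 4.48 and 74.0 RPM. In both rows the interval of small intestine reached past the lowest non-gut library. MiR-N29 was at 0, at least 7.87-fold below its mean. MiR-N75 was also at 0, but that shows only that it was at least 3.63-fold below its mean, short of 4-fold. MiR-N44 had a log2 ratio of −2.47, but −0.87 when 10 RPM was added, and a value in only 20 of 30 settings. With 10 RPM added, only miR-449a-5p (−2.81) and miR-N31 (−2.08) of the 8 stayed past 4-fold.

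Medians of the widely expressed families ran from well below to above the −1.06 of all rows. The let-7 family, which accumulates as cells differentiate, summed to 26177 RPM in small intestine, against 29107 RPM in the lowest, 56419 RPM at the median and 80730 RPM in the highest non-gut library, and 38875 RPM in stomach. All 9 rows as deposited lay below their mean but within 4-fold, with a median log2 ratio of −1.13 that is close to the −1.06 of all rows and ran from −1.60 to −0.58 under other settings. Let-7d-5p, let-7c-5p, let-7a-5p and let-7j-5p were below every non-gut library, and let-7a-5p stood at 0.5 of let-7j-5p in every library. Over all 209 rows counted, 8.61% were below every non-gut library, and only 46 rows lay above the mean of the 8 tissues. When levels were rescaled to the listed rows without the 11 higher rows, 3 non-gut libraries had a lower let-7 sum.

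MiR-125b-5p, abundant in mesenchyme of mammals, had 5709 RPM [5561 to 5861] and was also below every non-gut library, the lowest of which was liver at 8068 RPM, while stomach had 6752 RPM. Its list mates miR-99-5p (850 RPM, log2 ratio 0.07) and miR-100-5p (835 RPM, −0.28) lay near their means. The median of these 3 rows was −0.28, and it turned to 0.05 with trimmed mean scaling and to 0.28 when levels were rescaled without the 11 higher rows, where 3 non-gut libraries had a lower sum than small intestine. MiR-221-5p (403 RPM) and its cluster partner miR-222a (436 RPM) were at least 4-fold below their means of 2347 ± 1692 and 2140 ± 1978 RPM (SD, n = 8). The low row miR-222b-3p lay on the other side of its mean, with 26.4 RPM against 19.8 RPM, a log2 ratio of 0.40, and the median of the 3 rows was −2.29. The miR-17-92 list, known from proliferating cells, had 1 of 8 rows at least 4-fold lower, against 29.7% of all rows, and a median log2 ratio of −0.82. MiR-30, miR-15/16 and miR-23/27/24 rows had medians of −0.46, −0.47 and −0.46, none of their rows reached 4-fold, and the medians of miR-30 and miR-23/27/24 turned to 0.08 and 0.05 when levels were rescaled without the 11 higher rows. MiR-16a-5p and miR-16-5p had equal values in all 15 libraries and are not separate measurements. Their log2 ratio of −0.47 is the miR-15/16 median. MiR-148-5p and miR-152-3p had a median of 0.35, and miR-29b-1-5p a log2 ratio of 0.90 at 17.3 RPM. MiR-183 of the sensory cluster was at least 4-fold lower, with 20.3 RPM against a mean of 115 RPM. Its log2 ratio was −2.44 against that mean but −0.99 against the median of the 8 tissues. The sensory list was highest in tongue, with a sum of 626 RPM.

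**Figure D5:**
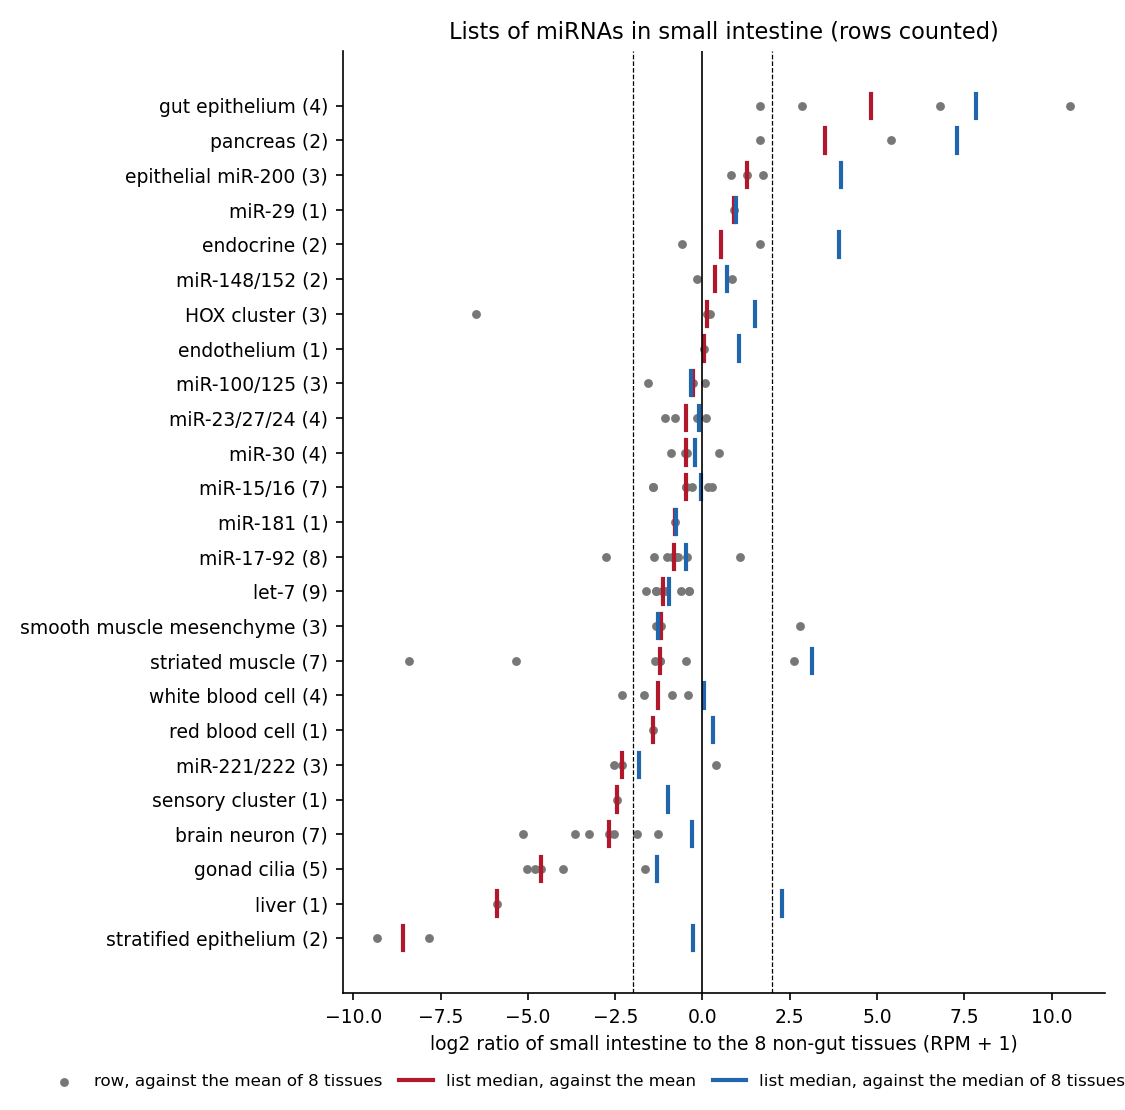
Log2 ratio of small intestine to the 8 non-gut tissues (RPM + 1, x axis) for 25 lists of miRNAs (y axis, rows counted in brackets), with grey dots for single rows against the mean, red bars for the list median against the mean and blue bars for it against the median of the 8 tissues. Gut epithelium has medians of 4.83 and 7.84, and the red and blue bars of liver lie on opposite sides of 0.

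Set against each tissue in turn, small intestine had its highest correlation with stomach and, among the non-gut tissues, with spleen. Over the 209 rows, Pearson's r of log2 levels was 0.91 with stomach, 0.85 with spleen, 0.82 with cloaca and 0.67 with brain. These are descriptions over miRNAs that share a library, and 8 pairs of libraries from 1 tissue gave 0.92 to 0.98. The share of rows at least 4-fold apart was 27.92% for tongue and 54.39% for brain, the lowest and highest of the 8 tissues. For spleen it was 39.55%, above every other non-gut tissue except testis and brain. By this share spleen was thus not the nearest tissue.

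Against stomach alone 172 rows had at least 10 RPM in either library, of which 22 (12.8%) were at least 4-fold higher in small intestine and 13 (7.56%) at least 4-fold lower. Both comparisons share the small intestine library. Of the 11 rows that were high against the non-gut tissues, 7 were also at least 4-fold above stomach, namely miR-215-5p, miR-194, miR-459-5p, miR-216a, miR-31, miR-21-5p and miR-458a-5p. The largest ratio was that of miR-216a. The smallest was that of miR-187-5p, with 176 RPM in small intestine and 28102 RPM in stomach, a log2 ratio of −7.31.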

How the data were processed

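Small RNA was sequenced from hatchling crocodile tissues, with total RNA taken from frozen tissue and a small RNA library kit, per the labels. The deposited values are RPM per mature miRNA, identified from the values themselves, since the total they were scaled to is not stated. Per the file headers, the table came from the quantifier of miRDeep2 2_0_0_8. Tools without a stated role, per the submitters' processing notes, were bcl2fastq 2, Bowtie 1.2.0 and bedtools 2.26.0. The aligner's role and the build are not given in the sources used here. MiRNA sequences were not analysed here. A read mapping to several miRNAs may be divided between rows, and 4 pairs of rows kept 1 ratio in all 15 libraries.

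Of 654 rows, 7 that repeated a mature name were dropped. The worth of 1 read was the largest step of which low values were whole multiples within 0.1 reads (92.9% of low values in small intestine, 88.2 to 95.3% over libraries), and depth and exact Poisson intervals follow from it. PCR copies are not independent molecules, so intervals cover counting error only. Folds are log2((RPM + 1)/(mean of 8 tissues + 1)) over rows with at least 10 RPM in either. The calculations used Python 3.11.15, numpy 2.4.6, pandas 2.3.3 and scipy 1.17.1, and were tested on simulated data. The table has 1 further column whose header fits no sample, and it was left out. Nothing says that libraries of 1 size class came from separate animals.

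The rows named are the at most 15 with the largest ratio among rows 4-fold higher and above every non-gut library, the 10 smallest ratios, the 10 most abundant, rows 4-fold lower and below every library, and members of 25 lists. MiR-1b-5p, miR-1662, miR-N383, miR-101-1-5p and miR-187-5p were named after their values were seen. Tissue, members and lists were chosen with earlier results of these data known. Alternatives were other means, filters, added values, thresholds and scalings, and leaving out each tissue or library.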

Additional observations from a re-analysis of the deposited data

Results flagged for a closer look

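Among the 34 named rows examined in the 4 testis libraries, the group of 4 libraries that enters the mean of the 8 tissues, 5 had 1 library far from the others. The measure is the gap to the nearest library divided by the whole range, and a value is listed when it passes Dixon's 95% limit for 4 values. About 1 in 20 sets of 4 values from 1 Gaussian distribution pass that limit. The testis libraries mix runts with normal hatchlings and RPM was not logged, so this rate need not hold here. MiR-205a had 8.15 RPM in normal library 2 against 35.0 to 39.7 RPM in the others (0.85), and small intestine had 41.6 RPM. MiR-499-3p had 79.8 RPM in runt library 1 against 0 to 9.63 RPM (0.879). In runt library 2, miR-N312 had 9.61 RPM against 1.53 to 2.69 RPM (0.856), miR-122-5p had 3152 RPM against 43.3 to 286 RPM (0.922), and miR-N31 had 48.1 RPM against 10.2 to 12.6 RPM (0.936). The miR-122-5p level in that library exceeded the 446 RPM of small intestine, while the other 3 testis libraries lay below it.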

How the results depend on the processing

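The settings were applied to 35 of the named rows, picked by ratio, abundance or place against every library, or as gut epithelium rows. Other list members, and miR-1b-5p, were not put through them as single rows. Of the 35 rows, 28 were at least 4-fold from the mean of the 8 tissues. Of these, 27 kept their direction in every setting that gave a value, and 16 stayed past 4-fold in all of them. The exception was miR-122-5p, and with it the liver list, at 1.30 with a mean of log2 levels, 2.29 with the median and 0.94 without liver (−6.07 without brain). A row had no value where it failed the filter, so these counts are partly fixed by the filter. Among the 16, miR-N341, miR-N312 and miR-N458 had values in 27 of 30 settings, and miR-196 and miR-459-5p in 28. The median and the mean of log2 levels gave none for miR-196 or these N-numbered rows. Neither did leaving out testis for miR-N341 and miR-N458, nor brain for miR-N312. MiR-204 and miR-211, also among the 16, are not separate measurements. The count of lower rows (62) was 101 with 10 RPM required in 2 libraries, 123 without a filter, 32 with a 50 RPM filter, 37 with 10 RPM added, 109 at 2-fold, 37 at 8-fold, 17 with a mean of log2 levels, 16 with the median (rows filtered on the median) and 113 when rescaled without miR-N444. Higher rows (11) numbered 18 at 2-fold, 6 at 8-fold, 21 with a mean of log2 levels, 24 with the median and 19 when rescaled without the higher rows, a setting chosen after seeing the data. Rows above every library (14) numbered 22 without a filter, 9 with stomach as a ninth tissue and 32 rescaled without the higher rows. Rows below every library (18) numbered 31 without a filter, 11 at 50 RPM, 28 rescaled to listed rows, 47 without miR-N444 and 10 without the higher rows. The gut epithelium median (4.83) was 4.77 with 10 RPM added, 6.88 with a mean of log2 levels, 7.84 with the median, 5.07 over the 13 libraries, 4.47 with stomach, 4.69 rescaled to listed rows, 4.49 without miR-N444, 5.11 with trimmed mean scaling and 5.45 without the higher rows. The cause of these shifts was not tested. The median of all rows moved from −1.06 to −0.69 (trimmed mean), −1.33 (listed rows), −1.66 (without miR-N444) and −0.56 (without the higher rows).

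Leaving out each tissue or library gave 10 to 14 higher rows, 51 to 71 lower, 14 to 17 above and 16 to 25 below every library, and a gut epithelium median of 4.67 to 5.42. No paired analysis was possible because small intestine has 1 value column and the columns carry no replicate numbers. At 990000 reads, a listed 0 in small intestine cannot be told from a level of up to about 3 RPM.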
